A study of Mus musculus with 23 samples.

Results

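The 4 genes of the adult mouse hemoglobin chains in C57BL/6J mice, Hba-a1, Hba-a2, Hbb-bs and Hbb-bt, and Alas2, the gene of the erythroid enzyme that starts heme synthesis, were followed in quadriceps muscle of male and female mice treated with corticosterone. These 5 genes were taken as a list of symbols and matched to Ensembl identifiers of a table of 55573 gene identifiers. All 5 were found, and all 5 belonged to the 13049 genes with enough counts to be tested. The study asked how the transcriptome of skeletal muscle responds to glucocorticoid excess in each sex, and the measurement was stranded mRNA sequencing of bulk muscle in 23 mice.

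All mice were C57BL/6J by the study's methods and C57Bl6 in the labels, without any induced mutation in the labels, and aged 8 to 10 weeks. The vehicle groups, 6 males and 6 females, carried a pellet of 100 mg cholesterol under the skin for 14 days. The corticosterone (CORT) groups, 6 males and 5 females, carried one with 50 mg corticosterone beside 50 mg cholesterol for the same 14 days. Corticosterone is the main glucocorticoid of mice. All mice were fasted for 5 h and then killed by cardiac puncture, so blood was drawn from every animal. Whether the muscle was perfused is not given in the sources used here, and blood counts were not analysed here. A mouse is named below by the letter of its sex and its number.

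Hemoglobin is a tetramer of alpha and beta chains, each holding a heme group, and it fills the erythrocyte. Alpha chains come from the Hba genes and beta chains from the Hbb genes, which are transcribed at very high levels in erythroid precursors of bone marrow and spleen. Reticulocytes, the young erythrocytes released into the blood, have no nucleus but still hold globin mRNA, so a muscle with its blood vessels contains some. Alas2 joins glycine and succinyl-CoA in erythroid mitochondria, whereas other tissues use the product of Alas1 for this step.

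On GRCm38, Hba-a1 (ENSMUSG00000069919) lies on the plus strand at chr11:32283511-32284465, and Hba-a2 (ENSMUSG00000069917) on the same strand at chr11:32296489-32297298. Hbb-bs (ENSMUSG00000052305) lies on the minus strand at chr7:103826534-103828096, and Hbb-bt (ENSMUSG00000073940) at chr7:103812524-103813996. Alas2 (ENSMUSG00000025270) lies on the plus strand at chrX:150547375-150570638 and has 11 exon blocks in GENCODE M21.

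The members of each globin pair are near copies, which bears on how their reads can be counted. The coding sequences of Hba-a1 and Hba-a2, 426 bases each without the stop codon, differed at 1 base, C381T, and those of Hbb-bs and Hbb-bt, 441 bases each, differed at 1 base, C417T. Positions are counted from 1 at the A of the start codon, with the base of the gene named first before the position. The stretches of exon 3 that hold these differences are shown with the differing base in capitals, from GENCODE M21 on GRCm38, at chr11:32284313-32284372 for Hba-a1, chr11:32297130-32297189 for Hba-a2, chr7:103826668-103826727 (minus strand) for Hbb-bs and chr7:103812659-103812718 (minus strand) for Hbb-bt.
Hba-a1: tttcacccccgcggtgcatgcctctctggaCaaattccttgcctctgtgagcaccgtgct
Hba-a2: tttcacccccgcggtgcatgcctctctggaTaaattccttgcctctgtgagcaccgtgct
Hbb-bs: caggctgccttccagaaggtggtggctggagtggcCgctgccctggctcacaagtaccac
Hbb-bt: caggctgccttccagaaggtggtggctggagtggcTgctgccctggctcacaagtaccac

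Of the windows of 100 bases, the length of 1 read, in the transcripts of Hba-a1, 261 of 711 (36.7%) were found in the transcripts of no other gene. The same held for 116 of 566 windows (20.5%) in Hba-a2, 335 of 666 (50.3%) in Hbb-bs and 273 of 604 (45.2%) in Hbb-bt. Every shared window was shared with the other member of the pair. All 2398 windows of Alas2 were its own. Read pairs that aligned to more than 1 place were left out of the deposited counts, and over all genes such pairs took a share of 5.63% to 10.5% per mouse. The mean share was 9.12% ± 0.946 in vehicle and 7.12% ± 1.04 in CORT males (SD). In females it was 8.28% ± 0.905 in vehicle and 8.35% ± 1.46 in CORT mice. Its part in the globin counts was not tested. The split of counts between the members of a pair is therefore uncertain, and globin reads that matched both members equally well are missing from the counts.

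The promoters of the 5 genes were searched for letters that erythroid promoters are known for. The search covered both strands of the 250 bases before the RefSeq start (GRCm38.p6) of 32841 mouse promoters, these 5 included. TGATAA, which GATA factors bind, was found before Hba-a1 and Hba-a2 and in 7.94% of promoters. The related AGATAA was found before Hbb-bs and Alas2 and in 9.99% of promoters, and Hbb-bt had neither. CACCC, bound by factors of the KLF family, was found before all 5 genes and in 52% of promoters. CCAAT was found before the 4 globin genes and in 33.9% of promoters. A TATA box with the letters ATATAA was found before the 4 globin genes and in 9.1% of promoters. No conclusion on binding follows from the presence or absence of these letters. Short windows that hold such letters (in capitals, on the strand of the gene) are shown because they carry the most matches of each promoter: chr11:32283489-32283518 for Hba-a1, chr11:32296306-32296335 for Hba-a2, chr7:103827989-103828018 for Hbb-bs, chr7:103813994-103814023 for Hbb-bt and chrX:150547377-150547406 for Alas2.
Hba-a1: TGATAAggattccctgCACCCaggggaagc
Hba-a2: TGATAAggattccctgCACCCaggggaagc
Hbb-bs: CACCCtggtaagggCCAATctgctcacaca
Hbb-bt: CtgcagggtaaCACCCtggcATTGGCCAAT
Alas2: GGGTGGGGTGGGGTGggcggggctgagcag

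The promoters of Hba-a1 and Hba-a2 matched at all 247 bases that could be laid over each other, while those of Hbb-bs and Hbb-bt matched at 127 of 249 bases (51%). The capitals in the Alas2 window are matches read on the opposite strand, as is the left part of the last capitals in the Hbb-bt window, where 2 matches lie side by side. The single capital at the left end of the Hbb-bt window is the last base of a further match. The RefSeq starts used here differ from those of GENCODE M21. By the GENCODE M21 positions given above, the windows of Hbb-bs and Alas2 lie inside the gene. Those of Hba-a1 and Hbb-bt overlap the first bases of the gene.

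Depth was even, with 20904150 to 21984477 counts on genes per mouse. Levels are given as CPM, counts per 1000000 after scaling by the trimmed mean of M-values (TMM), which can change the order of mice. The tissue was muscle by its markers, as 10 fast fiber genes such as Acta1 and Ckm summed to 90752 to 258952 CPM. The 9 hepatocyte genes, such as Alb, summed to 2770 CPM in F10, 2680 in M8, 2073 in F6, 1559 in M12 and 1559 in M9, against at most 455 CPM (F2) in the other mice. Of these 5 mice 4 were CORT mice. Tests of single genes were repeated without all 5 mice, and the results for the 5 genes are given below. Shares and ratios within a mouse and relations between genes were not repeated without them. Whether males and females were processed together is not stated, so sex and batch cannot be told apart.

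The alpha globin genes were higher in CORT mice of both sexes. The Hba-a1 level in vehicle males was 44.6 CPM at the lowest (M7), 53.6 at the median and 83.9 at the highest (M3). In CORT males it was 87.6 CPM at the lowest (M12), 121 at the median and 293 at the highest (M4). Every CORT male thus lay above every vehicle male, and M4 lay far above the other CORT males, which did not exceed 137 CPM.

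In vehicle females the Hba-a1 level was 32.8 CPM at the lowest (F9), 55.0 at the median and 179 at the highest (F5). The 5 CORT females had 227 (F2), 125 (F4), 226 (F6), 181 (F8) and 259 CPM (F10). F5 lay within the range of the CORT females, above F4, and the other vehicle females reached at most 96.7 CPM (F3), below all CORT females.

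**Figure D1:**
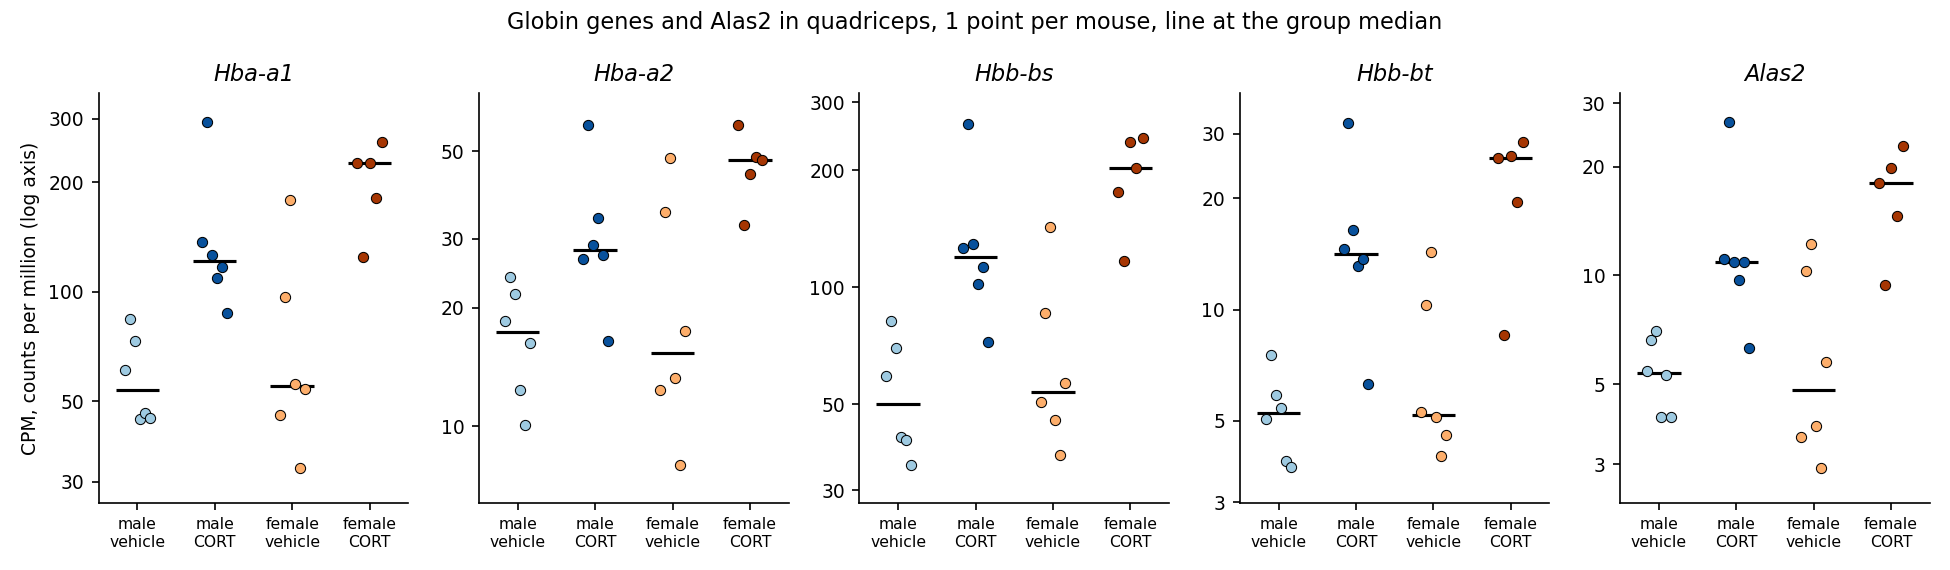
Level of each gene in CPM on a log axis, with 1 point per mouse and a line at the median of the group. Hba-a1 ranged from 44.6 to 83.9 CPM in vehicle males and from 87.6 to 293 CPM in CORT males, and in females the vehicle mouse F5 (179 CPM) lay above the CORT mouse F4 (125 CPM).

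Mean Hba-a1 levels were 59.0 ± 16.7 CPM in vehicle and 145 ± 74.6 CPM in CORT males (SD, n = 6 each), and 77.4 ± 54.3 CPM in vehicle (n = 6) and 204 ± 52.0 CPM in CORT females (n = 5). The log2 fold change (log2FC) was 1.30 (SE 0.35) in males and 1.39 (SE 0.36) in females. The adjusted p-value was 0.00539 in males and 0.00718 in females (quasi-likelihood test of edgeR, adjusted by Benjamini-Hochberg over 13049 genes), both under the threshold of 0.01. In bulk muscle, more erythroid cells and more globin mRNA per cell cannot be told apart.

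Hba-a2 had fewer counts than Hba-a1 in every mouse, and its medians were higher in CORT than in vehicle mice of each sex. It measured 10.1 to 23.9 CPM in vehicle males (median 17.4) and 16.5 to 58.4 CPM in CORT males (median 28.1). In vehicle females it was 8.0 CPM at the lowest, 15.4 at the median and 48.1 at the highest. The CORT females had 58.2 (F2), 32.5 (F4), 43.8 (F6), 48.3 (F8) and 47.5 CPM (F10).

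In males the groups overlapped through M12 alone, the lowest CORT mouse, and in females through F5 and F3, the highest vehicle mice. The log2FC of Hba-a2 was 0.90 (SE 0.36) in males and 1.04 (SE 0.37) in females, with adjusted p-values of 0.0485 and 0.0396 (edgeR), which did not pass the threshold. That Hba-a1 passed and Hba-a2 did not is no evidence that their responses differ. Their shares within a mouse are compared below.

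Of the beta globin genes, Hbb-bs was the more abundant. It ranged from 34.8 CPM (M11) to 82.0 CPM (M3) in vehicle males with a median of 50.1, and from 72.2 CPM (M12) to 263 CPM (M4) in CORT males with a median of 119.5. In vehicle females it ranged from 37.0 CPM (F9) to 143 CPM (F5) with a median of 53.7. The CORT females had 176 (F2), 117 (F4), 236 (F6), 203 (F8) and 242 CPM (F10).

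M12 was the one CORT male within the vehicle range, and F5 the one vehicle female within the CORT range. The Hbb-bs log2FC was 1.30 (SE 0.33, adjusted p = 0.0033, edgeR) in males and 1.48 (SE 0.34, adjusted p = 0.00309) in females, and both passed the threshold.

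Hbb-bt had the largest log2FC of the 5 genes in both sexes with all mice in the fit. It measured 3.74 to 7.51 CPM in vehicle males (median 5.23) and 6.28 to 32.1 CPM in CORT males (median 14.2). In vehicle females it measured 4.0 to 14.3 CPM (median 5.18). The CORT females had 25.7 (F2), 8.51 (F4), 26.1 (F6), 19.6 (F8) and 28.5 CPM (F10).

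Here too M12 was the CORT male within the vehicle range, and F4 lay below the vehicle females F5 and F3 (10.3 CPM). Hbb-bt rose with a log2FC of 1.61 (SE 0.36, adjusted p = 0.00138, edgeR) in males, a fold of 3.05 with a 95% interval from 1.86 to 5.01. In females its log2FC was 1.57 (SE 0.37, adjusted p = 0.0038), a fold of 2.98 with a 95% interval from 1.80 to 4.93.

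Alas2, the heme enzyme of erythroid cells, moved with the globin genes although its reads are shared with no other gene. It measured 4.05 to 7.0 CPM in vehicle males (median 5.36) and 6.28 to 26.6 CPM in CORT males (median 10.9). In vehicle females it measured 2.93 to 12.2 CPM (median 4.80). The CORT females had 18.0 (F2), 9.43 (F4), 19.9 (F6), 14.6 (F8) and 22.8 CPM (F10).

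Of the CORT males, M12 lay below the vehicle males M3 and M5, and of the CORT females, F4 lay below the vehicle females F5 and F3. The Alas2 log2FC was 1.22 (SE 0.35, adjusted p = 0.00859, edgeR) in males and 1.39 (SE 0.36, adjusted p = 0.00702) in females. Both passed the threshold.

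In each sex 4 of the 5 genes thus rose with CORT and none fell. For comparison, 13.2% of all tested genes rose in males and 7.37% in females. The median log2FC of the 5 genes was 1.30 in males and 1.39 in females, against -0.02 and 0.03 over all tested genes. Full separation, with every CORT mouse above every vehicle mouse, was seen for Hba-a1 in males alone, and 10.9% of tested genes were separated in this way in males and 3.37% in females.

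**Figure D2:**
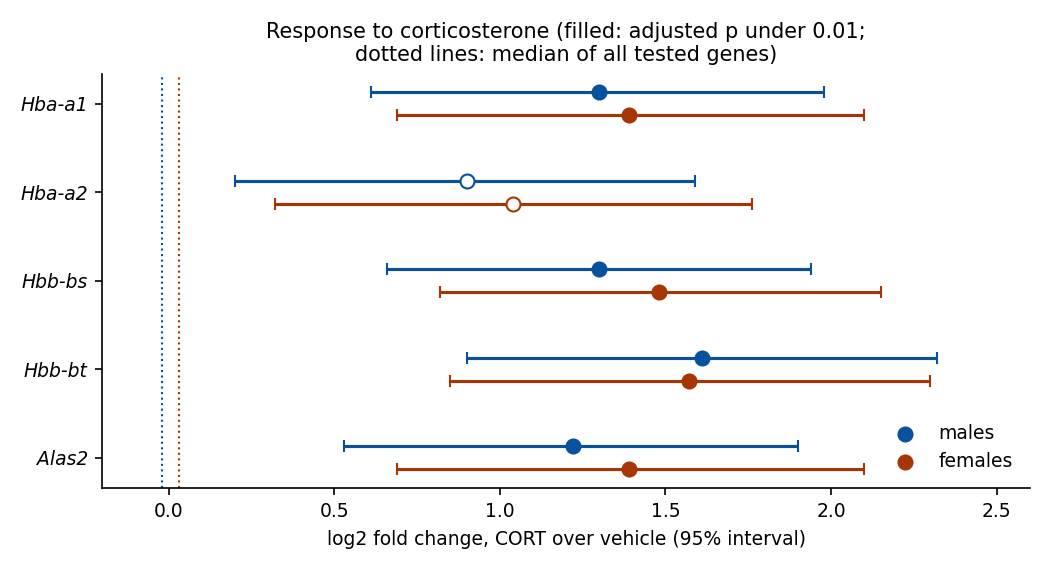
Log2 fold change of CORT over vehicle for each gene (x axis), with 95% intervals, in males (blue) and females (red), where filled points passed an adjusted p of 0.01. All 10 intervals lay above the medians of all tested genes (-0.02 and 0.03, dotted lines), and the 2 open points are Hba-a2 at 0.90 and 1.04.

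The calls depended on single mice. Without M4, the CORT male with the highest levels, 1 of the 5 genes passed in males, Hbb-bt (adjusted p = 0.00559, edgeR). Without M1, M7, M9 or M11, each a vehicle male, 2 genes passed in males, Hbb-bs and Hbb-bt. In females 0 genes passed without F6 and 0 without F10, Hbb-bs alone passed without F1, F2, F7, F9 or F11, and all 5 passed without F5, the vehicle female with the highest levels. Without F10 and M8, the mice with the most hepatocyte transcripts, 3 genes passed in males (Alas2 did not, adjusted p = 0.0106, edgeR) and 0 in females. Without all 5 mice named above for their hepatocyte transcripts, 2 passed in males, Hbb-bs and Hbb-bt, and 0 in females, where log2FC ran from 1.03 (Hba-a2) to 1.28 (Hbb-bt) with 3 CORT mice left. With each sex fitted alone, 4 passed in males and 0 in females. The number of all tested genes that passed in females moved as well, from 1748 to 993 without F6, to 561 in the fit of females alone and to 457 without the 5 mice. In males it moved from 3420 to 2889 without M4 and to 2422 without the 5 mice. Without 1 of M1, M7, M9 and M11 it lay between 2950 (M11) and 3078 (M9).

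The sizes moved less than the calls. Over the 32 alternatives, which include 23 fits that each left out 1 mouse, the log2FC of Hba-a1 stayed between 0.97 and 1.47 in males and between 1.18 and 1.83 in females. As each group has its own mean in the model, leaving out a mouse of the other sex could hardly move these values. For Hbb-bt it stayed between 1.29 and 1.82 in males and between 1.28 and 1.89 in females. The highest adjusted p-value of Hba-a1, Hbb-bs, Hbb-bt and Alas2 in any of these fits and either sex was 0.0968, that of Alas2 in females without the 5 mice.

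**Figure D3:**
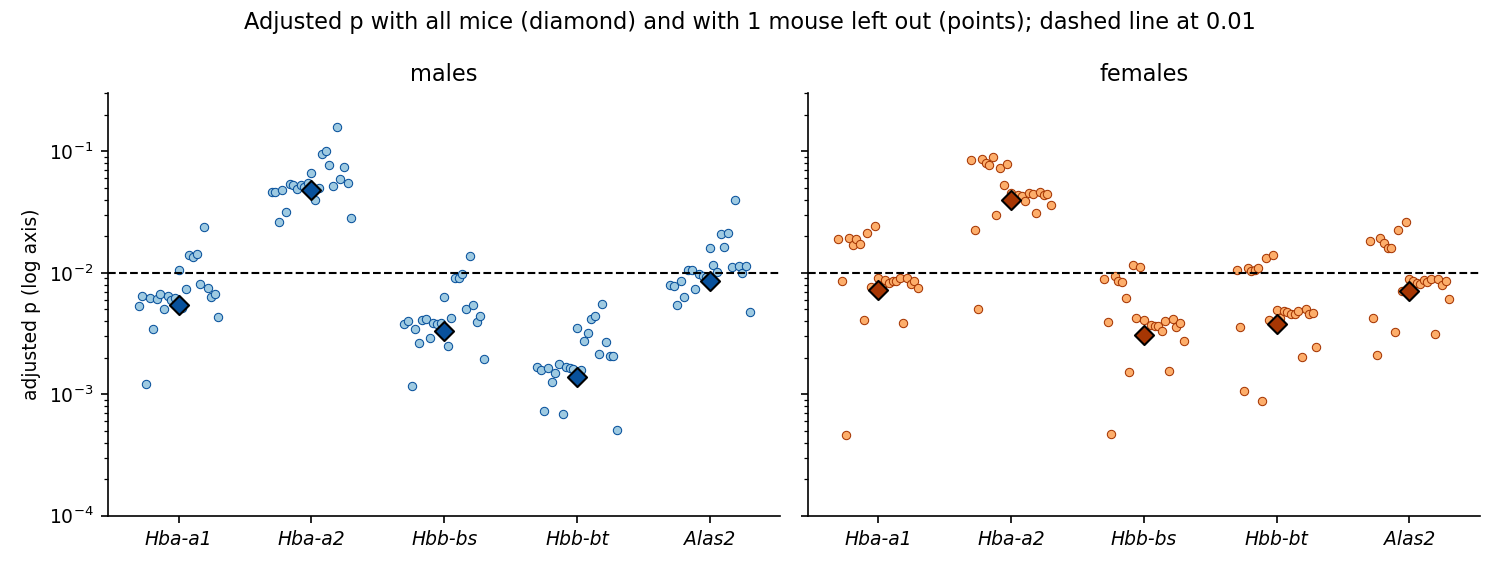
Adjusted p-value of each gene (log axis) in males and females, with all mice (diamond) and with 1 mouse of either sex left out (points), and a dashed line at the threshold of 0.01. In males Hbb-bt stayed under 0.01 throughout, with 0.00559 as the highest, and in females every gene crossed the line in at least 1 fit.

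The responses of males and females were not distinguishable for any of the 5 genes. The difference between the male and the female log2FC was -0.10 for Hba-a1 (SE 0.50), -0.14 for Hba-a2 (SE 0.51), -0.18 for Hbb-bs (SE 0.47), 0.04 for Hbb-bt (SE 0.51) and -0.18 for Alas2 (SE 0.50). Adjusted p-values ran from 0.808 to 0.966 (edgeR). The number of genes called was 0 of 5, also with DESeq2 and limma-voom, and none had an unadjusted p under 0.05 with edgeR. Of all 13049 tested genes, 89 (0.682%) were called with edgeR, 896 with DESeq2 and 693 with limma-voom. The 95% intervals of the difference were wide, from -1.07 to 0.88 for Hba-a1 and from -0.96 to 1.03 for Hbb-bt on the log2 scale.

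The fitted levels of the 5 genes were lower in males than in females under both treatments, within the spread between mice. The log2FC of vehicle males over vehicle females ran from -0.47 (Hbb-bt) to -0.25 (Alas2), with adjusted p-values of 0.648 to 0.836. This direction rested in part on F5, without which it was 0.05 for Hba-a1 and 0.03 for Alas2, and the vehicle medians were higher in males for Hba-a2, Hbb-bt and Alas2. In CORT mice it ran from -0.54 (Hbb-bs) to -0.43 (Alas2), with adjusted p-values of 0.214 to 0.359 (edgeR), and without the 5 mice with hepatocyte transcripts it was 0.13 for Hbb-bt and 0.12 for Alas2. Other alternatives made it stronger, down to -0.84 for Hbb-bs and -0.82 for Hba-a1. The lowest adjusted p of the 5 genes in any alternative fit of CORT mice (edgeR, DESeq2 or limma-voom) was 0.0447, which did not pass. None of the 5 genes was called in either comparison by edgeR, DESeq2 or limma-voom, and none had an unadjusted p under 0.05 in the main edgeR fit. With edgeR 125 of all tested genes (0.958%) were called in vehicle mice and 3044 (23.3%) in CORT mice. These calls numbered 284 and 3843 with DESeq2 and 187 and 3438 with limma-voom.

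Per length of exon, Hba-a1 and Hbb-bs stood at the top together. In vehicle males their levels were 72.6 ± 20.5 and 71.0 ± 24.6 CPM per kb, and in CORT females 251 ± 64.1 and 254 ± 66.2 CPM per kb (SD). Hba-a1 was above Hbb-bs in 13 of 23 mice, which leaves this pair without an order. Below them, Hba-a2, Hbb-bt and Alas2 followed in this order in 23 of 23 mice, with 25.7 ± 7.96, 7.46 ± 1.98 and 2.25 ± 0.516 CPM per kb in vehicle males.

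The order within a pair rests in part on which reads could be told apart. Hba-a2 had a median of 0.261 counts for each count of Hba-a1 (range 0.183 to 0.362), and its transcripts had 0.444 windows of their own for each such window of Hba-a1. Hbb-bt had a median of 0.108 counts for each count of Hbb-bs (range 0.0725 to 0.146), with 0.815 windows of its own for each of Hbb-bs.

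All 4 globin genes together were a small share of the muscle RNA. They took from 0.00768% of gene counts in F9 to 0.0697% in F10. In CPM the globin total was 99.7 to 197 in vehicle males, 183 to 647 in CORT males, 81.9 to 385 in vehicle females and 283 to 577 in CORT females. M4 thus lay above F10 in CPM (647 against 577), but below it by share of gene counts (0.0538% against 0.0697%). The TMM scaling reversed their order. M12 was the only CORT male below a vehicle male, and F5 the only vehicle female above a CORT female.

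No difference in the makeup of this total between CORT and vehicle mice held after adjustment. Counts of the alpha pair over those of the beta pair ranged from 0.995 (F9) to 1.59 (M11) over all mice. The mean ratio was 1.30 ± 0.144 in vehicle and 1.19 ± 0.091 in CORT males, and 1.23 ± 0.189 in vehicle and 1.17 ± 0.164 in CORT females. Neither difference exceeded the spread between mice (exact two-sided permutation tests, p = 0.13 in males and 0.591 in females, adjusted p = 0.26 and 0.788 over 8 tests).

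The share of Hba-a2 in the alpha pair was 22.4% ± 2.82 in vehicle and 18.3% ± 2.90 in CORT males, a difference of -4.07 percentage points (exact permutation test, p = 0.0433, adjusted p = 0.26). In females it was 22% ± 2.88 in vehicle and 18.8% ± 2.67 in CORT mice, a difference of -3.28 percentage points (exact permutation test, p = 0.113, adjusted p = 0.26). The share was below the vehicle mean in 5 of 6 CORT males and 5 of 5 CORT females, but neither difference held after adjustment. The share of Hbb-bt in the beta pair was 9.02% ± 1.43 in vehicle and 10.4% ± 1.24 in CORT males (exact permutation test, adjusted p = 0.26), and 9.42% ± 1.11 and 9.75% ± 2.20 in females (adjusted p = 0.84).

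**Figure D4:**
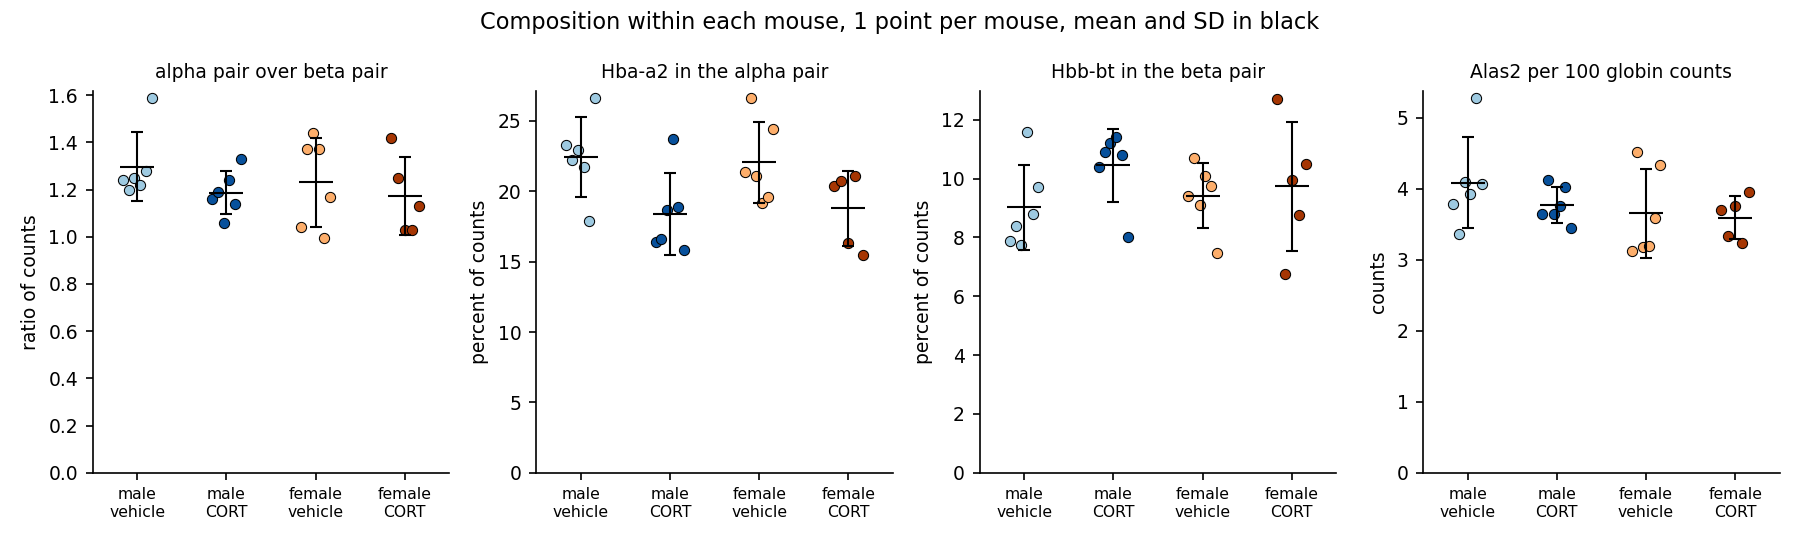
Alpha over beta counts, share of Hba-a2 in the alpha pair, share of Hbb-bt in the beta pair and Alas2 counts per 100 globin counts (y axes from 0), with 1 point per mouse and mean and SD in black. The groups overlap in all 4 panels, and the mean Hba-a2 share runs from 18.3% in CORT males to 22.4% in vehicle males.

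Alas2 kept a narrow ratio to the globin genes. There were 3.12 (F1) to 5.27 (M9) Alas2 counts for every 100 globin counts over all mice, although the globin total varied 7.9-fold in CPM. The mean was 4.08 ± 0.64 in vehicle and 3.77 ± 0.256 in CORT males, and 3.65 ± 0.624 in vehicle and 3.59 ± 0.301 in CORT females (exact permutation tests, adjusted p = 0.526 in males and 0.84 in females).

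Within groups, too, mice that were high for one of the 5 genes were high for the others. After group means were removed from log2 CPM, Pearson's r between 2 of the genes over 23 mice ran from 0.843 (Hba-a2 and Hbb-bt) to 0.96 (Hba-a1 and Hbb-bs). Spearman's rho ran from 0.796 to 0.951. The permutation p of r was 1e-05 for all 10 pairs, the smallest that 100000 permutations within groups can give, and its adjusted value was 1e-05 as well, while the adjusted p of rho was at most 0.00012.

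Between Hba-a1 and Alas2, which share no reads, r was 0.951 and rho 0.933. Leaving out the 2 mice farthest from the median gave r from 0.81 to 0.93 over the 10 pairs, so the relation did not rest on those mice. Reads that matched both members of a pair equally well were left out of the counts. Whether reads counted for the wrong member set part of the relation within a pair was not tested.

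**Figure D5:**
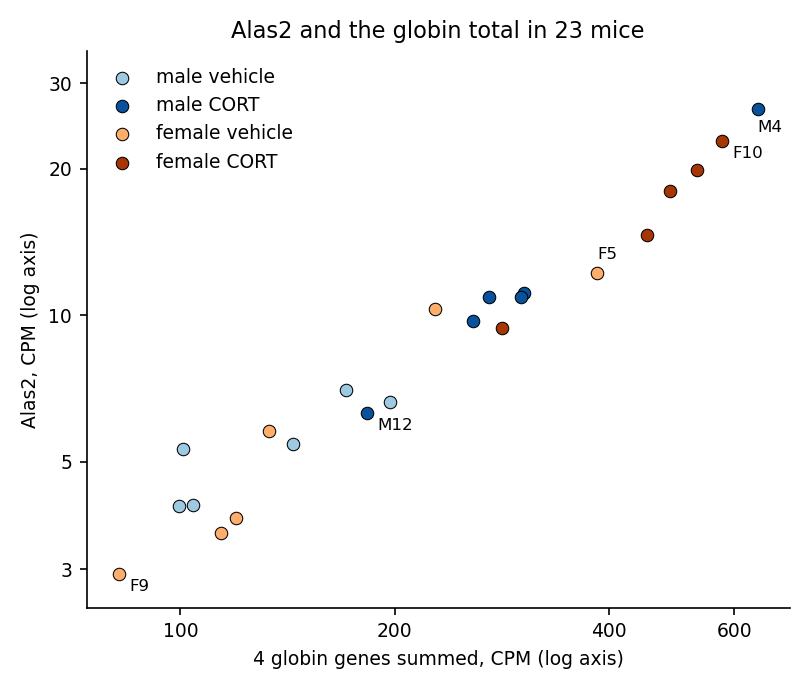
Alas2 level against the summed level of the 4 globin genes, both in CPM on log axes, with 1 point per mouse coloured by group. Mice run along 1 line from F9 (81.9 and 2.93 CPM) to M4 (647 and 26.6 CPM), and M12 lies among vehicle males and F5 next to CORT mice.

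Outside these 5 genes, the genes that followed the globin total most closely over the 23 mice, after group means were removed, included Sln (sarcolipin, an inhibitor of the muscle calcium pump, r = 0.82), Slc15a5 (r = 0.80) and Fhl2 (r = 0.75). Lower values were found for 5730419F03Rik (r = 0.73), Axin2 (r = 0.71), Itgae (r = 0.70) and Gm38832 (r = 0.70). Of the 13044 tested genes outside the 5, only Sln and Slc15a5 had an r above 0.8, and these values are a description without a test. By comparison, r with the globin total, which contains them, was 0.99 for Hba-a1, 0.93 for Hba-a2, 0.98 for Hbb-bs and 0.93 for Hbb-bt, and it was 0.96 for Alas2, which is not part of it.

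Sln ranged from 0.188 to 43.5 CPM and did not pass in either sex (adjusted p = 0.0621 and 0.637, edgeR). Fhl2, Axin2 and Itgae did not pass either. Gm38832 rose with CORT in males (log2FC 3.36, adjusted p = 4.71e-06, edgeR) and females (4.23, adjusted p = 1.5e-05). Slc15a5 rose in females alone (5.22, adjusted p = 8.63e-05) and 5730419F03Rik in males alone (1.85, adjusted p = 0.00385, edgeR). The lowest level of Slc15a5 and of Gm38832 was 0.0 CPM, so their r includes mice without counts.

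The embryonic and minor hemoglobin genes were not seen at levels that could be tested. Hba-x, Hbb-y, Hbb-bh1 and Hbb-bh2 had 0 counts in every mouse, where the 3 counts that a count of 0 allows correspond to at most 0.166 CPM. Hbq1a had at most 5 counts and Hbq1b at most 2. Of the globins of other cells, Mb, the oxygen store of muscle fibers, did not pass (log2FC -0.36 in males and 0.70 in females, adjusted p = 0.713 and 0.511), and Cygb fell in males (log2FC -0.75, adjusted p = 0.00878, edgeR).

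The other genes of heme synthesis, which every cell uses, moved in both directions in males. Of 10 such genes tested, 2 rose and 3 fell in males and none passed in females, with median log2FC of 0.17 and 0.03. As background for this and the following lists, 3420 of all 13049 tested genes passed in males, 1728 of them upward (13.2% of those tested). In females 1748 passed, 962 of them upward (7.37% of those tested), and the rest of each number fell. Uros (log2FC 0.37, adjusted p = 0.00507) and Fech, which inserts the iron (0.30, adjusted p = 0.00385), rose in males, and those that fell included Alad (-0.43) and the mitochondrial iron carrier Slc25a37 (-0.50, edgeR). Alas1, the counterpart of Alas2 in other tissues, measured 120 ± 26.1 and 151 ± 33.0 CPM in vehicle and CORT males and 91.4 ± 13.7 and 130.3 ± 16.5 CPM in females, and it did not pass (adjusted p = 0.0791 and 0.0175).

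Of 9 genes of iron handling tested, 3 fell and 0 rose in males and 3 fell and 2 rose in females, with median log2FC of -0.05 and 0.14. Tfrc, the receptor that takes up transferrin iron, fell in males (log2FC -1.47, adjusted p = 6.47e-05, edgeR) and females (-1.32, adjusted p = 0.000899). The iron transporter gene Slc11a2 (-0.56 and -0.46) and the ferrireductase gene Steap3 (-1.22 and -0.68) also fell in both sexes. In females 2 genes rose, Ftl1, a ferritin chain whose gene has near copies in the genome (0.83), and Ncoa4, the receptor for ferritin breakdown (0.40). Among 10 genes that clear heme and hemoglobin, Hmox2 (-0.62) and Blvra (-0.48) fell in males and Hp, which binds free hemoglobin, rose in females (4.86, adjusted p = 0.000391), where its mean in CORT mice was 475 ± 464 CPM. The median log2FC of these 10 genes was -0.26 in males and 0.48 in females. Among the CORT females, F6 had the highest sum of the 10 genes (1609 CPM) and F8 the lowest (216 CPM). The 9 hepatocyte genes summed to 2073 CPM in F6 against 216 CPM in F8. For 8 adipocyte genes the sums were 6917 and 277 CPM. Whether transcripts of hepatocytes or adipocytes contributed to the Hp level was not tested. Without the 5 mice with hepatocyte transcripts, Fech alone of the heme synthesis genes passed in males, and of the iron genes Steap3 alone passed in females.

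Most genes restricted to erythroid cells were too low to test. Of 14 genes of the erythrocyte membrane and skeleton, 5 were tested, of which Sptb (log2FC 1.08) and Epb41 (0.40) rose in males and Ank1 fell in females (-0.81), with median log2FC of 0.40 and 0.01. All 3 are also expressed in muscle fibers. Slc4a1, the anion exchanger of erythrocytes, had 0 to 7 counts in vehicle males, 1 to 24 in CORT males, 0 to 7 in vehicle females and 0 to 39 in CORT females, with the highest value of each sex in M4 and F10.

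Of 10 erythroid transcription factor and receptor genes, 4 were tested, and Lmo2 fell in males (log2FC -1.05, adjusted p = 0.000672, edgeR), with median log2FC of -0.36 in males and -0.06 in females. Klf1 had at most 10 counts and Gata1 at most 4 in any mouse. Of 18 genes of late erythroid cells, 12 were tested, many of them also expressed in other tissues. In males 4 rose, among them Xpo7 (0.35), Cd24a (1.04) and Bcl2l1 (1.53), and Prdx2 fell (-0.66). In females 4 rose, among them Isg20 (1.38), Cd24a (0.50) and Bcl2l1 (1.30), and 0 fell. The median log2FC of this list was 0.02 in males and 0.08 in females.

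The 20 listed erythroid genes that were under the filter and had an identifier were also summed. Their counts were 18 to 139 in vehicle males (median 38.5), 22 to 72 in CORT males (median 33.5), 36 to 83 in vehicle females (median 40.5) and 45 to 117 in CORT females (median 63.0). M1 held the 139 counts, 58 of them of Hemgn, which had at most 1 count in any other mouse. M4, F5 and F10, the mice highest for globins in their groups, were also the highest of CORT males, vehicle females and CORT females for this sum. Vehicle males went the other way, as M3, their highest mouse for globins, had 33 counts, under their median of 38.5.

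Markers of other blood and vessel cells were set beside the globin genes. Of 11 platelet genes 2 were tested, and Itga2b fell in males (log2FC -0.94), while the summed level was 3.44 to 13.1 CPM in vehicle males, 3.26 to 6.34 in CORT males, 4.73 to 11.7 in vehicle females and 7.12 to 18.1 in CORT females. M4 had the lowest platelet sum of the CORT males. Of 11 neutrophil genes 3 were tested, and S100a8 (2.22 and 2.91) and Lcn2 (4.69 and 5.61) rose in both sexes, while the third, Mmp9, did not pass (-1.45 and -0.80, adjusted p = 0.0143 and 0.212, edgeR). Lcn2, which other cells express as well, made up most of the sum in CORT mice. The neutrophil sum was 3.53 to 14 CPM in vehicle and 32.9 to 124 CPM in CORT males, with M4 the highest, and 2.03 to 8.69 CPM in vehicle and 38.3 to 92.9 CPM in CORT females. Without Lcn2 the sum was 2.77 to 8.26 CPM in vehicle and 3.37 (M4) to 6.56 CPM in CORT males, and 1.37 to 6.72 CPM in vehicle and 3.63 to 11 CPM in CORT females, so the groups overlapped.

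Lymphocyte genes were all under the filter, and their sum was 0.715 to 2.83 CPM in vehicle and 0.162 to 0.616 CPM in CORT males, and 0.83 to 4.52 CPM in vehicle and 0.227 to 0.91 CPM in CORT females. Of 12 endothelial genes Flt1 rose (0.71) and Tek fell (-0.52) in males and none passed in females, with median log2FC of -0.41 in males and -0.02 in females. Of 10 fast fiber genes, Actn3 rose (1.61) and Pvalb fell (-0.81) in males, and Pvalb (-1.03) and Tnnc2 (-0.69) fell in females. Of 8 adipocyte genes Lep alone passed, in females (6.79), with median log2FC of -0.08 in males and 2.13 in females. The adipocyte sum was 221 to 1009 CPM in vehicle and 296 to 928 CPM in CORT males, 284 to 2629 CPM (F5) in vehicle females and 277 to 6917 CPM (F6, median 3290) in CORT females. Of 9 hepatocyte genes none passed in either sex, with median log2FC of 1.19 in males and 1.91 in females. The part of these cell types, and of the blood content of the muscle, in the rise of the globin genes was not tested.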

How the data were processed

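RNA of quadriceps muscle was sequenced from 23 mice as stranded mRNA libraries with paired reads of 100 bases. The authors aligned the reads to mm10 with STAR 2.7.3a, counted read pairs per gene with HTSeq 0.12.4 by strand, and deposited these counts without normalization, as 55573 Ensembl gene identifiers and 5 summary entries, which were left out here. Sex and treatment in the sample labels gave the 4 groups. As each sample is 1 mouse by its label, p-values measure the spread between mice. Over 55 pairs of mice of 1 group, chi-square over its degrees of freedom was at least 15, so no pair agreed within sampling noise.

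The 13049 genes above 20 normalized counts in 4 or more mice of any group were tested with edgeR 4.0.16 in R 4.3.3 (TMM, quasi-likelihood test, 1 model with 4 groups, Benjamini-Hochberg adjustment, threshold 0.01). The study names DESeq2, which was an alternative here (DESeq2 1.42.0), beside limma-voom with sample quality weights (limma 3.58.1), other filters and scalings, each sex fitted alone and leaving out each mouse. The fit was checked on simulated counts. Shares within a mouse were compared by two-sided exact permutation tests with a threshold of 0.05, chosen after their values were seen. Relations between genes used log2 CPM with a prior count of 1 and 100000 permutations. Intervals and the limit of 3 counts cover counting or sampling error only.

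The genes named are the 5 members, the 8 other genes with the highest r with the globin total, and members of 15 lists that passed, were at 0 counts or lay under the filter. A few of these genes are not reported here. The 5 genes and the lists were chosen with earlier results of these data known. Of the listed symbols, Ahsp and Tf matched no identifier by symbol. Names, positions and coding sequences came from GENCODE M21 (GRCm38), which matched 55394 identifiers, and promoters from RefSeq. Protein sequences were not used here.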

Additional observations from a re-analysis of the deposited data

Results flagged for a closer look

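Values of 1 mouse lay far from those of the other mice of its group in 8 of the 48 sets of values examined (16.7%), by Dixon's criterion at 95%, which chance passes in about 1 in 20 sets. The 48 sets share mice and genes, so they are not independent.

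Of these, 6 were M4 among the CORT males. M4 had an Hba-a1 level of 293 CPM, an Hbb-bs level of 263 CPM and an Alas2 level of 26.6 CPM, where the next CORT male had at most 137, 129 and 11.1 CPM. The alpha pair summed to 352 CPM, the beta pair to 295 CPM and the 4 globin genes to 647 CPM in this mouse. Its sum of 11 neutrophil genes was the highest of the CORT males (124 CPM), but without Lcn2 it was the lowest (3.37 CPM), as was its platelet sum (3.26 CPM), and their part in the globin levels was not tested.

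The others concern ratios. M11 had the highest alpha over beta ratio of the vehicle males (1.59), and Hbb-bt took 8.01% of the beta counts in M12, the lowest share among the CORT males.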

How the results depend on the processing

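The 5 genes had a positive log2FC in both sexes under all 32 alternatives, though fits that left out a mouse of the other sex could hardly change it. Of 5 genes, 4 passed in each sex with all mice. In males scaling by library size alone, which moved the median log2FC of all genes to -0.097 in males and 0.084 in females, left 2, and leaving out 1 mouse gave 1 (M4) to 4. In females no filter beyond 1 count left 2, each sex fitted alone left 0, leaving out F10 and M8 left 0, and leaving out 1 mouse gave 0 (F6 or F10) to 5 (F5). All genes called moved by over 1.5 times in females without F2 (1113), F6 (993), or in females alone (561), and without F10 they numbered 1195 against 1748. Without F6, F10, M8, M9 and M12, left out for their hepatocyte transcripts (both this set and F10 with M8 were chosen after seeing the data), 2 of the 5 genes passed in males and 0 in females, and 457 of all genes in females. The 3 comparisons between sexes gave 0 calls of the 5 genes throughout. For the difference between the male and female responses, calls over all genes ran from 1 without M3 to 896 with DESeq2. The cause of lost calls was not tested. Fits that left out mice had fewer mice, while scaling by library size alone and no filter beyond 1 count kept them all.

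Values near 0 changed sign. The male minus female difference of Hbb-bt became -0.27 with limma-voom and -0.13 with library size alone, and leaving out 1 mouse gave -0.28 (F5 or M4) to 0.20 (M12), below 0 also without F3, F4, M9 or M11. That of Hba-a1 ran from -0.54 (F5) to 0.06 (F9), above 0 also without F1, F10, M3 or M12, and that of Hba-a2 from -0.52 (F5) to 0.03 (F9). Without F10 and M8 it was 0.10 for Hba-a1, 0.00 for Hbb-bs and 0.05 for Alas2, and without all 5 mice 0.29, 0.25 and 0.38, while CORT males minus females became 0.13 for Hbb-bt and 0.12 for Alas2. Vehicle males minus females ran from -0.55 (F9) to 0.05 (F5) for Hba-a1 and from -0.40 (F9) to 0.03 (F5) for Alas2. In females the treated minus vehicle difference ran from -0.172 to 0.108 for Alas2 per 100 globin counts and from -0.42 to 1.07 for the Hbb-bt share.

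The numbers that males and females share were not used as pairs in the main fit, and whether they mark shared handling is not known. Same-numbered males and females correlated from -0.377 to 0.477, above 0.1 in 7 of 11 pairs, and 2 of 11 males matched their own number best. With the replicate block 0 of the 5 genes were called in the 3 comparisons between sexes, as without it. Over all genes the block moved the calls between CORT males and females from 3044 to 2257. No fit with the block was possible within a sex, where no number recurs. Of 1332 refits of list genes that passed, 170 lost the call and 0 changed sign. Low counts limited the erythroid genes under the filter, and shared sequence the split of reads within a globin pair.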
